A study of Mus musculus with 6 samples.

Results

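The immediate early genes are the genes that a cell transcribes within minutes of a stimulus, without first making new protein. Growth factors, stretch, wounding and the enzymatic dissociation of a tissue all induce them through mitogen-activated protein (MAP) kinases, which act on factors already bound at their promoters, chiefly SRF with its ternary complex partners and CREB. Fos and Fosb pair with Jun and Junb to form the leucine zipper factor AP-1, Atf3 is a related zipper factor of the stress response, Egr1, Egr2 and Egr3 are zinc finger factors, Ier2 is a small nuclear regulator, and Dusp1 is a phosphatase that switches MAP kinases off again. The 10 genes named here were chosen as a list by name, and all 10 were among the 26567 genes to which transcripts could be assigned. They lie on chromosomes 12 (Fos), 7 (Fosb), 4 (Jun), 8 (Junb and Ier2), 18 (Egr1), 10 (Egr2), 14 (Egr3), 1 (Atf3) and 17 (Dusp1).

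RNA was measured in cap mesenchyme, the nephron progenitor tissue around the ureteric tips, sorted by flow cytometry from C57BL/6 mouse kidneys at embryonic day 18.5. A Six2-driven Cre recombinase deleted conditional alleles of Dnmt1, the maintenance DNA methyltransferase, in both groups. The 3 Dnmt1 KO libraries carried the genotype Dnmt1 -/- and the 3 Dnmt1 HET libraries the genotype Dnmt1 +/-, so the controls also carried Cre and a deleted allele. Each library was made from 50 ng of RNA, and nothing in the labels says whether it came from one embryo or a pool, so the p-values reflect how far these samples vary, which may be technical. Six2-Cre acts in the nephron progenitors and their descendants, and cells of other lineages that enter the sort keep Dnmt1.

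Estimated counts summed to 51676519, 61585484 and 58289817 in KO replicates 1 to 3. In HET replicates 1 to 3 they summed to 51803748, 60108548 and 46741667. Levels are given in CPM (the counts-per-million scale after library scaling). A count of 3 was taken as the limit that a count of 0 allows. Without library scaling, from the counts assigned to genes alone, this limit lay between 0.0525 and 0.0692 CPM (counting error only). Dnmt1 had 20.9, 18.6 and 14.9 CPM in KO replicates 1 to 3, against 40.04, 52.4 and 51.7 CPM in HET replicates 1 to 3. It averaged 18.1 ± 3.02 CPM in KO and 48.1 ± 6.95 CPM in HET libraries (SD, n = 3 each), a log2 difference of -1.41 ± 0.15 (SE; edgeR, adjusted p = 0.000264). Summed cap mesenchyme markers, the most abundant being Crym, Wt1 and Sall1, were at 1308 to 1601 CPM in KO and 1852 to 1949 CPM in HET libraries, with 2 of 10 called lower (Cited1 and Wt1). Six2 had 75.0, 105 and 95.8 CPM in KO replicates 1 to 3, against 99.9, 114 and 124 CPM in HET replicates 1 to 3. No marker of any list was at 0 in all libraries. Markers of other cell types were also present, and the endothelium, ureteric, stroma and macrophage sums were highest in KO replicate 1. The summed level of 10 endothelium markers was 214, 89.8 and 48.9 CPM in KO replicates 1 to 3, against 29.0 to 41.5 CPM in HET libraries, and all 10 had fold changes above 1. The 10 ureteric markers summed to 314, 171 and 86.3 CPM in the same KO libraries against 55.42 to 97.03 CPM in HET, again with all 10 above 1. The 10 stroma markers summed to 1033, 514 and 431 CPM in KO against 314 to 398 CPM in HET, with 9 of 10 above 1. The 9 matched macrophage markers summed to 18.8 to 23.4 CPM in KO and 16.3 to 17.7 CPM in HET, podocyte markers to 47.7 to 65.6 CPM in KO and 71.8 to 81.0 CPM in HET, and the 7 matched erythroid genes to 262 to 580 CPM in KO and 335 to 768 CPM in HET. KO replicate 3 therefore lay within the HET range for ureteric markers and at 48.9 CPM, against a highest HET value of 41.5 CPM, for endothelium. It lay above each HET library for stroma (431 CPM against at most 398 CPM) and macrophage markers (20.9 CPM against at most 17.7 CPM). Y-linked genes summed to 7.79, 185.5 and 10.4 CPM in KO replicates 1 to 3 and to 309, 9.15 and 256 CPM in HET replicates 1 to 3, so libraries with high Y-linked levels were not balanced between the groups. In bulk samples, fewer cells of a type and less RNA per cell cannot be told apart.

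In KO cap mesenchyme the stress factor Atf3 was 3.81-fold, Egr2 2.39-fold and Fos 1.43-fold higher than in HET, while Jun had a fold change of 0.945. Of the 10 genes, 3 rose (Atf3, Egr2 and Fos), none fell and 7 did not pass (edgeR's quasi-likelihood test over 16989 genes, with p adjusted by Benjamini-Hochberg, throughout, and called when under 0.05). Among all genes tested, 4.92% were called higher and 1.92% lower. At an unadjusted p under 0.05, 8 of the 10 were higher and 0 lower, against 12.4% and 9.61% of all genes tested. DESeq2 called 5 higher and 0 lower, against 7.02% and 3.06% of all genes to which it gave an adjusted p. The median log2 fold change was 0.54 over the 10 genes and -0.003 over all genes tested, and 9 of the 10 were above 0, with Jun below. In 6 of the 10, each KO library lay above each HET library, and 0 of the 10 had the opposite separation; the corresponding shares of all genes tested were 14.8% and 14.2%. The count of 3 was 0 without HET replicate 1, 1 without HET replicate 2 and 5 without KO replicate 3. With the Y-linked level as a covariate it was 4, Egr1 being added. With KO replicates 1 and 2 both left out, a comparison added after the data were seen because these libraries had the highest endothelium, ureteric and stroma marker sums, Atf3 remained called and the median log2 fold change was 0.51; that fit assumes that the lone KO library varies like the HET group.

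**Figure D1:**
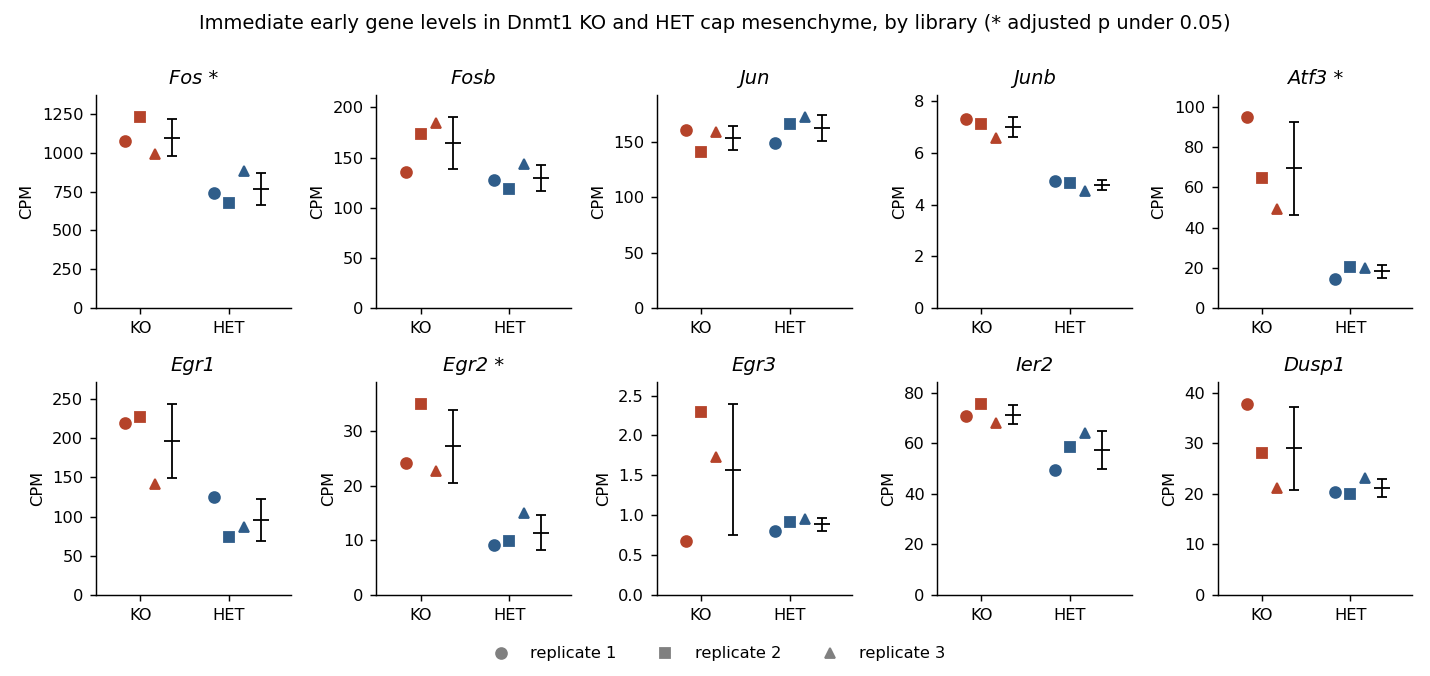
Levels of the 10 genes in CPM (vertical axes, from 0) in the KO (red) and HET (blue) libraries, with a symbol for each replicate and the mean ± SD in black beside each group. Atf3, Egr2, Fos, Egr1, Junb and Ier2 have the 3 KO points above the 3 HET points, while Jun, Fosb, Egr3 and Dusp1 overlap; asterisks mark adjusted p under 0.05.

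Read library by library, the genes that stood above the HET range differed between the 3 KO libraries. KO replicate 2 exceeded every HET library for 9 of the 10 genes, with Jun the exception. KO replicate 3, which had the lowest endothelium, ureteric and stroma marker sums of its group, did so for 8, with Jun and Dusp1 the exceptions. KO replicate 1 did so for 7, the exceptions being Fosb, Jun and Egr3. The mean of the 10 genes on the log2(CPM + 1) scale was 5.88, 5.97 and 5.71 in KO replicates 1 to 3 and 5.15, 5.15 and 5.33 in HET replicates 1 to 3, so the groups did not overlap. HET replicate 3 was the highest of its group for Fos, Fosb, Jun, Egr2, Egr3, Ier2 and Dusp1, and lay closest to the KO libraries.

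Atf3, a zipper factor induced by stress and by the unfolded protein and amino acid responses, had 94.8, 64.5 and 49.4 CPM in KO replicates 1 to 3, against 14.4, 20.3 and 20.04 CPM in HET replicates 1 to 3. The lowest KO library was 2.43 times the highest HET library. The group means were 69.6 ± 23.1 CPM in KO and 18.2 ± 3.34 CPM in HET (SD, n = 3 each). Atf3 rose by 1.93 ± 0.27 on the log2 scale (SE; 3.81-fold; edgeR adjusted p = 0.0088). The KO libraries stood in the same order as their endothelium, ureteric and stroma marker sums; the part of these cells in the rise was not tested, and in KO replicate 3 alone the log2 fold change was 1.46 ± 0.20 (SE; edgeR, adjusted p = 0.006). The call was lost without HET replicate 1 (adjusted p = 0.0576).

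Egr2, a zinc finger factor best known from hindbrain and Schwann cell development, had 24.1, 34.9 and 22.6 CPM in KO replicates 1 to 3, against 9.14, 9.97 and 15.1 CPM in HET replicates 1 to 3. KO replicate 2 was the highest library, and the groups did not overlap. Egr2 rose by 1.26 ± 0.23 on the log2 scale (SE; 2.39-fold; edgeR adjusted p = 0.0159). The call was lost without HET replicate 1 (adjusted p = 0.0828) or HET replicate 2 (adjusted p = 0.0763), and in KO replicate 3 alone the log2 fold change was 1.01 ± 0.27 (SE; edgeR, adjusted p = 0.127). The transcript Egr2-001 took 89.2% to 93.5% of the gene's estimated counts in KO libraries and 76.1% to 84.0% in HET libraries, without overlap between groups, and this share was not tested.

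Fos, the inducible partner of Jun in AP-1, had 1076, 1227 and 989 CPM in KO replicates 1 to 3, against 743, 674 and 881 CPM in HET replicates 1 to 3. Each KO library was above each HET library, although the nearest pair, KO replicate 3 and HET replicate 3, differed by 1.122-fold. Fos rose by 0.52 ± 0.12 on the log2 scale (SE; 1.43-fold; edgeR adjusted p = 0.0249). The call was lost without KO replicate 2 (adjusted p = 0.122), HET replicate 1 (0.0959) or HET replicate 2 (0.104) and with limma on log2(TPM + 0.1) (0.0503) or unfiltered log2(TPM + 1) (0.115), and in KO replicate 3 alone the log2 fold change was 0.39 ± 0.16 (SE; adjusted p = 0.422). Fos messages are short-lived and scarce in most resting cells. By TPM (the transcripts-per-million scale), which scales each transcript for its length and each library to the same total, it ranked 215 to 238 of 26567 genes in the KO libraries and 248 to 320 in the HET libraries. A high Fos level was thus common to both groups.

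Promoters of 7 of the 10 genes were taken from RefSeq (build GRCm38.p6), from 250 bases before an annotated start to 50 bases after it. They are given for the 3 genes that rose and for Jun, which did not. Egr2 had 5 windows, of which the one overlapping most of the others was used, and its other windows do not enter the results for the 7. The capitals mark TGACG on either strand, the core of the cAMP response element that CREB and ATF proteins bind, and the CArG box that SRF binds. The windows are at chr1:191183284-191183583 on the minus strand for Atf3, chr10:67537619-67537918 on the plus strand for Egr2, chr12:85473640-85473939 on the plus strand for Fos and chr4:95052173-95052472 on the minus strand for Jun.
Atf3: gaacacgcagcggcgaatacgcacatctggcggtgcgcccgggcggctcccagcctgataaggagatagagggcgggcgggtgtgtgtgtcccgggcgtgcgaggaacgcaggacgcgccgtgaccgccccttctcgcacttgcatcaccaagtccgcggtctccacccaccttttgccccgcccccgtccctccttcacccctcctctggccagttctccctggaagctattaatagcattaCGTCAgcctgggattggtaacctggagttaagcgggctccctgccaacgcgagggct
Egr2: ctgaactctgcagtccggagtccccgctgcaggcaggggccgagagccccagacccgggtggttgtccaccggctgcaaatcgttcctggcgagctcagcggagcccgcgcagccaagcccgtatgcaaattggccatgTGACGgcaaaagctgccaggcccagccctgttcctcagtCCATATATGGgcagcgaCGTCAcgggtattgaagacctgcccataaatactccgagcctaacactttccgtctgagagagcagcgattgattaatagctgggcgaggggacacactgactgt
Fos: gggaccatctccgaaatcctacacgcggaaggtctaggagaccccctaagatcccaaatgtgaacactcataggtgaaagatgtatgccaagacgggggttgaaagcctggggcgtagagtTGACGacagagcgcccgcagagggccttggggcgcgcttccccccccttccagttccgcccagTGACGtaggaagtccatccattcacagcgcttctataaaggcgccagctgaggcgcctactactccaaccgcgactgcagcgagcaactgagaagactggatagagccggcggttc
Jun: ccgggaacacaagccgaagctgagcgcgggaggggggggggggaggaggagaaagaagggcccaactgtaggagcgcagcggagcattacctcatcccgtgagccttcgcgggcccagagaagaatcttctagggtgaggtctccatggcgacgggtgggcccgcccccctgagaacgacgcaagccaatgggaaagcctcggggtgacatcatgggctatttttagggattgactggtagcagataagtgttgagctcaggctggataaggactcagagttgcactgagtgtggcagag
The core begins 7 bases before the start in Atf3, 111 and 55 bases before it in Egr2, and 129 and 66 bases before it in Fos, and the letters were not found in the Jun window. It was present in 6 of the 7 promoters and in 20.8% of all 32851 windows of the same length. Those 6 include Fosb, Junb and Dusp1, which did not pass. The complete element TGACGTCA, which contains the core on both strands, was present in 1 of the 7 (Dusp1) and in 1.79% of all windows. The CArG box was present in 1 of the 7 (Egr2, 72 bases before the start) and in 1.63% of all windows, the AP-1 site TGANTCA in 0 of the 7 and in 7.81%, and TATAAA in 2 of the 7 (Fos and Junb) and in 13.6%; all motifs were searched on both strands. The 7 windows held 15 to 31 CpG dinucleotides, the sites that Dnmt1 methylates, against a median of 7 over all windows. The core TGACG itself contains a CpG, and the shares over all windows were not matched for CpG count. Of all windows, 84.5% held fewer CpG than Atf3 and 65.4% fewer than Jun. These matches describe exact letters within the windows. The Jun window holds TGACATCA, a near match to TGACGTCA that was not counted, and sites more than 250 bases before the start were not searched. Nothing was measured here on methylation or on binding at these promoters. No windows of Egr1, Egr3 or Ier2 were used, so the motif and CpG counts do not cover these genes.

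Egr1 and Junb did not pass although their groups did not overlap. Egr1, a growth factor-induced transcription factor, had 219, 226 and 142 CPM in KO replicates 1 to 3, against 125, 73.5 and 87.1 CPM in HET replicates 1 to 3. KO replicate 3 was 1.13-fold above HET replicate 1, the nearest pair. Its log2 fold change was 1.04 ± 0.27 (SE; 2.05-fold; edgeR adjusted p = 0.0893), and it passed without KO replicate 3 (adjusted p = 0.0129) and with DESeq2 (adjusted p = 0.00888). Its spread within groups was wide, with a coefficient of variation of 23.9% in KO and 28.2% in HET. Egr3, a family member that acts in muscle spindles and lymphocytes, was near the bottom of the list at 0.679, 2.29 and 1.73 CPM in KO and 0.797, 0.919 and 0.949 CPM in HET libraries, or 32, 119 and 88 counts against 41, 54 and 43. KO replicate 1 held the lowest Egr3 value of the 6 libraries and KO replicate 2 the highest, and the log2 fold change of 0.82 ± 0.43 (SE) did not pass (edgeR adjusted p = 0.293).

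Junb, a Jun family member that can restrain Jun, had 7.3, 7.12 and 6.58 CPM in KO replicates 1 to 3, against 4.92, 4.83 and 4.54 CPM in HET replicates 1 to 3. The groups did not overlap, and the coefficients of variation were 5.31% in KO and 4.11% in HET. The KO libraries had the order of their endothelium, ureteric and stroma marker sums, whose part was not tested. Among the 10 genes, only Atf3, Junb and Dusp1 had this order. The Junb log2 fold change of 0.55 ± 0.17 (SE; 1.47-fold) did not pass (edgeR adjusted p = 0.0918), and with DESeq2 the adjusted p was 0.026. Jun, whose protein can pair with itself or with Fos, had 160.5, 141 and 158.5 CPM in KO replicates 1 to 3, against 149, 165.5 and 172 CPM in HET replicates 1 to 3. The groups overlapped, and the log2 fold change was -0.08 ± 0.09 (SE; edgeR adjusted p = 0.622). Fosb, a relative of Fos, had 135.5, 174 and 184 CPM in KO replicates 1 to 3, against 128, 118 and 144 CPM in HET replicates 1 to 3. KO replicate 1, the library with the most endothelium marker RNA, lay inside the HET range, and without it Fosb passed (log2 fold change 0.47; edgeR adjusted p = 0.0232), against 0.34 ± 0.12 (SE; adjusted p = 0.138) with all libraries.

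Set against each other on the TPM scale, the AP-1 families were dominated by Fos. The 4 Fos family transcripts (Fos, Fosb, Fosl1, Fosl2) summed to 656, 690 and 589 TPM in KO replicates 1 to 3, against 511, 427 and 553 TPM in HET replicates 1 to 3. The 3 Jun family transcripts (Jun, Junb, Jund) summed to 75.8, 63.8 and 72.4 TPM in KO libraries and 79.1, 76.8 and 81.7 TPM in HET libraries. On the TPM scale, on which the median of all genes was below 0 in log2 fold change, the KO libraries thus lay above the HET libraries for the Fos family and below them for the Jun family. On the CPM scale the Jun family summed to 201, 183 and 202 in KO replicates 1 to 3 and to 192, 204 and 216 in HET replicates 1 to 3, and the groups overlapped, while the Fos family sums, 1217 to 1448 CPM in KO and 827.5 to 1064 CPM in HET, remained apart. The ratio of the family sums was 8.66, 10.8 and 8.14 in KO libraries and 6.46, 5.56 and 6.77 in HET libraries, a description that was not tested. Junb was a minor transcript in both groups, at 4.06 to 4.74 TPM in KO and 2.99 to 3.52 TPM in HET libraries, which put Fos 128 to 149 times above it in KO and 121 to 168 times in HET. Among the Egr factors, Egr1 was at 50.4 to 81.8 TPM in KO and 27.8 to 51.2 TPM in HET, Egr2 at 8.49 to 12.6 TPM and 3.98 to 6.19 TPM in the same order of groups, and Egr3 at 0.591 to 1.83 TPM and 0.764 to 0.836 TPM.

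**Figure D2:**
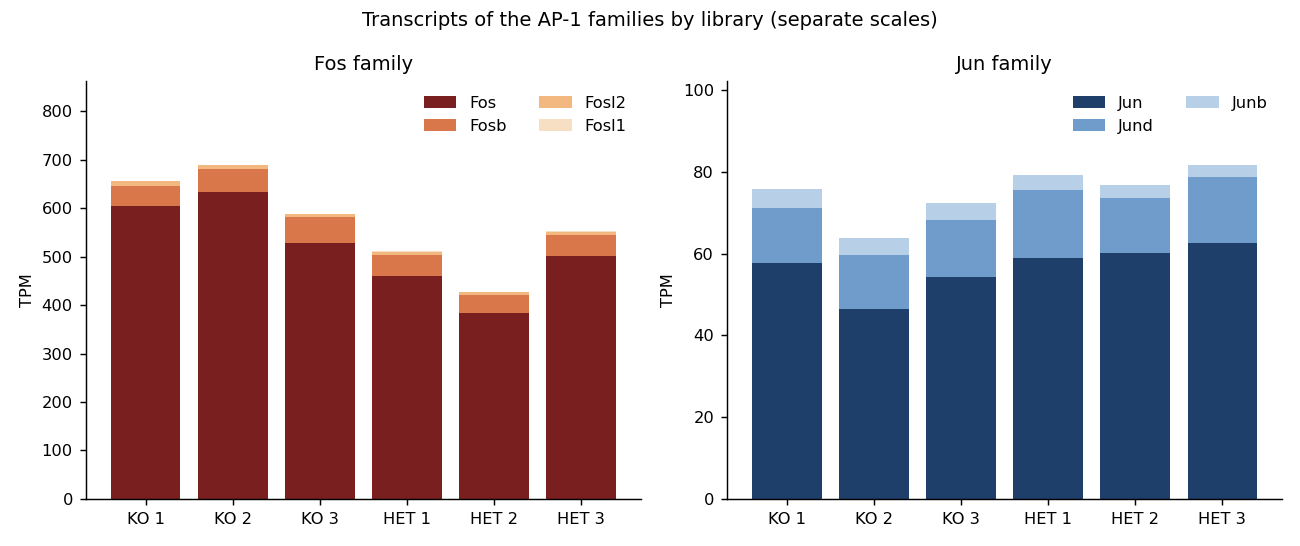
Stacked TPM of the Fos family (left) and the Jun family (right, on a smaller scale) in each KO and HET library. Fos makes up most of its family in each library; the Fos family sums are 589 to 690 TPM in KO and 427 to 553 TPM in HET, and the Jun family sums are 63.8 to 75.8 TPM in KO and 76.8 to 81.7 TPM in HET, groups that overlap on the CPM scale.

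The remaining genes were the small nuclear regulator and the feedback phosphatase. Ier2 had 70.8, 75.3 and 67.9 CPM in KO replicates 1 to 3, against 49.4, 58.5 and 64.2 CPM in HET replicates 1 to 3. The groups did not overlap, but the nearest pair differed by 1.06-fold and the log2 fold change of 0.32 ± 0.10 (SE) did not pass (edgeR adjusted p = 0.112). Dusp1 had 37.6, 28.1 and 21.2 CPM in KO replicates 1 to 3, against 20.3, 19.9 and 23.1 CPM in HET replicates 1 to 3. Its KO libraries had the order of their endothelium, ureteric and stroma marker sums, whose part was not tested, and KO replicate 3 lay inside the HET range. Its log2 fold change was 0.46 ± 0.19 (SE; edgeR adjusted p = 0.202), 0.64 without KO replicate 3 (adjusted p = 0.0373) and 0.03 in KO replicate 3 alone (adjusted p = 0.983). Transcripts of Dusp1 that retain an intron took 4.27%, 2.85% and 10.2% of its counts in KO replicates 1 to 3 and 7.25%, 7.1% and 9.91% in HET replicates 1 to 3, so the groups overlapped.

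**Figure D3:**
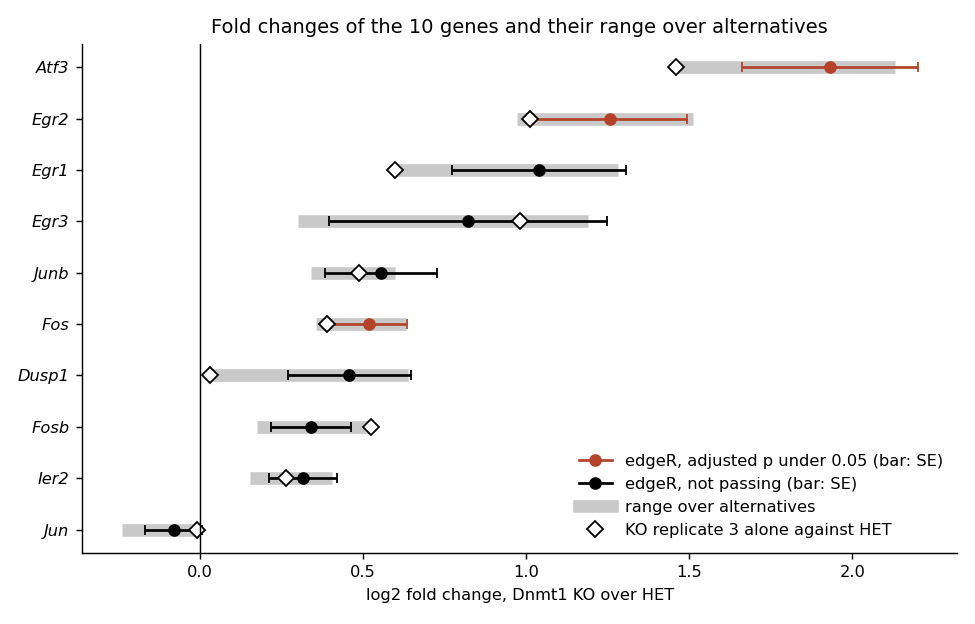
Log2 fold change of each gene, KO over HET (horizontal axis), with its SE as a bar, the range over 17 alternative analyses in grey and the value with KO replicate 3 alone as a diamond. Atf3 lies at 1.93 and Jun at -0.08; 9 genes stay above 0 and Jun below 0 under each alternative, and the diamonds run from -0.01 for Jun to 1.46 for Atf3.

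The 10 genes differed in how closely they followed each other over the 6 libraries. Egr2 and Fos followed the mean of the other 9 standardised genes most closely (Pearson r = 0.986 and 0.957), Egr3 and Dusp1 less (r = 0.473 and 0.649), and Jun ran against it (r = -0.452). Outside the list, the 5 protein-coding genes with at least 5 CPM whose levels followed the mean of the 10 most closely were Lama4, a laminin chain (r = 0.999), Dtd1, a tRNA-editing deacylase (r = 0.997), Ercc3, a DNA helicase of TFIIH (r = 0.996), Tex261 (r = 0.994) and Cd151, a tetraspanin (r = 0.992). These values are a description over 6 libraries that share the group difference, and 164 of the 10571 genes compared had r above 0.95. Lama4 had 104, 113 and 99.5 CPM in KO replicates 1 to 3, against 59.7, 63.9 and 76.2 CPM in HET replicates 1 to 3.

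Genes that are co-induced with the 10, or that act with them, were read from the same test. In 6 lists of such genes, 22 of the 110 tested were higher and 3 lower (edgeR, adjusted p under 0.05), or 11 and 11 when libraries were scaled to their totals alone, which moved the median of all genes to -0.17 on the log2 scale. Of 41 other immediate early genes tested, 8 rose and 33 did not pass; their median log2 fold change was 0.21. Klf10, a zinc finger factor induced by TGF-beta, had 93.0, 95.4 and 77.3 CPM in KO replicates 1 to 3, against 53.0, 56.2 and 63.3 CPM in HET replicates 1 to 3, and rose by 0.62 ± 0.11 on the log2 scale (SE; adjusted p = 0.00524). Btg2, an antiproliferative gene and p53 target, rose by 0.54 ± 0.10, Trib1, a pseudokinase, by 0.56 ± 0.12, Nfkbia, the inhibitor of NF-kappaB, by 0.41 ± 0.09, and Nr4a1, an orphan nuclear receptor, by 0.59 ± 0.13 (log2 scale, SE). The count of 8 was 1 without KO replicate 2 or HET replicate 2, 4 without HET replicate 1 and 5 without KO replicate 1 or HET replicate 3, and it was 4 with library totals and 2 on log2(TPM + 1) or log2(TPM + 0.1); Klf10 kept its call without each library in turn.

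Heat shock genes were the related list with the largest share called. Of 15 chaperone genes tested, 8 rose and 7 did not pass, all 15 had log2 fold changes above 0, and the median was 0.37. Their summed level was 9674, 10710 and 10890 CPM in KO replicates 1 to 3, against 7756, 8366 and 8461 CPM in HET replicates 1 to 3. Their mean log2(CPM + 1) was 6.35, 6.37 and 6.28 in KO replicates 1 to 3 and 5.82, 5.98 and 6.04 in HET replicates 1 to 3, so the groups did not overlap on either measure, and the order of the KO libraries depended on the measure. Hspb1, a small heat shock protein named after its values were seen, had 3.69, 2.53 and 1.24 CPM in KO replicates 1 to 3, against 0.797, 0.851 and 0.794 CPM in HET replicates 1 to 3, and its KO libraries had the order of their endothelium, ureteric and stroma marker sums, whose part was not tested. Hspa4l, an Hsp110-type chaperone, had 14.8, 18.6 and 15.7 CPM in KO replicates 1 to 3, against 8.17, 7.96 and 10.2 CPM in HET replicates 1 to 3, and rose by 0.90 ± 0.15 on the log2 scale (SE; edgeR adjusted p = 0.00502). Its relative Hsph1 rose by 0.60 ± 0.12, the mitochondrial co-chaperonin Hspe1 by 0.37 ± 0.08, the inducible cytosolic Hsp90aa1 by 0.36 ± 0.08 and the constitutive Hspa8 by 0.36 ± 0.09 (log2 scale, SE). Hspa1a, the classical stress-induced Hsp70, had 4.71, 3.99 and 2.55 CPM in KO and 1.23, 2.71 and 2.8 CPM in HET libraries and overlapped between groups, and its reads can be shared with its near-identical copy Hspa1b. The count of 8 was 2 without KO replicate 2, HET replicate 2 or HET replicate 3, 3 without KO replicate 3 and 4 without HET replicate 1, and it was 3 with library totals and 2 with the Y-linked level as a covariate; Hspa4l kept its call in each case.

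In the integrated stress response, in which ATF4 drives amino acid and stress genes and Atf3 itself, 3 of 16 genes rose and 13 did not pass, with a median log2 fold change of 0.19. Trib3, a pseudokinase that restrains ATF4, had 2.21, 1.29 and 1.87 CPM in KO replicates 1 to 3, against 0.272, 0.306 and 0.574 CPM in HET replicates 1 to 3, and rose by 2.22 ± 0.40 on the log2 scale (SE; edgeR adjusted p = 0.00808). Chac1, which degrades glutathione, had 2.12, 2.72 and 2.22 CPM in KO replicates 1 to 3, against 0.642, 0.868 and 0.596 CPM in HET replicates 1 to 3, and rose by 1.74 ± 0.30 (SE; adjusted p = 0.00593). Neither gene's groups overlapped, and both kept their calls without each library in turn. Psat1, an enzyme of serine synthesis, rose by 0.43 ± 0.08 (log2 scale, SE), a call lost without KO replicate 2 or HET replicate 3 and with library totals. The message of Atf4 itself, which is regulated mainly in translation, had a log2 fold change of 0.10 ± 0.08 (SE; edgeR adjusted p = 0.502), and that of Ddit3, the pro-apoptotic factor CHOP, 0.32 ± 0.12 (adjusted p = 0.148).

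Among 17 feedback genes of MAP kinase signalling, to which Dusp1 is related, 3 phosphatase genes rose and 14 did not pass, with a median log2 fold change of 0.13. Dusp14 had 13.1, 9.55 and 8.33 CPM in KO replicates 1 to 3, against 4.45, 5.51 and 4.74 CPM in HET replicates 1 to 3, and rose by 1.07 ± 0.20 on the log2 scale (SE; edgeR adjusted p = 0.0107). Its KO libraries again had the order of those marker sums, whose part was not tested, and its call was kept without each library in turn. Dusp8 rose by 0.83 ± 0.16 and Dusp2 by 0.71 ± 0.18 (log2 scale, SE). The call of Dusp8 was lost without KO replicate 2 or HET replicate 2, and that of Dusp2 without each library in turn except KO replicate 3. Of 13 AP-1 partner genes tested, Fosl2 rose by 0.44 ± 0.11, while the zipper factor Maf changed by -1.04 ± 0.21 (log2 scale, SE). Of 13 genes for SRF and its ternary complex partners, Srf changed by -0.34 ± 0.08 and 12 did not pass, with a median of -0.04. Of 18 kinases of the MAP kinase cascades, 17 did not pass and the median was -0.10; Mapk11, a p38 kinase named here after its values were seen, rose by 0.96 ± 0.18 (log2 scale, SE), a call lost without KO replicate 2. The calls of Fosl2 and Srf were lost without KO replicate 1, KO replicate 2, HET replicate 2 or HET replicate 3, that of Fosl2 also without HET replicate 1 and that of Maf without KO replicate 1 or HET replicate 3. With KO replicates 1 and 2 left out, the 22 genes called higher in the 6 lists were all above 0 and all lost their calls.

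**Figure D4:**
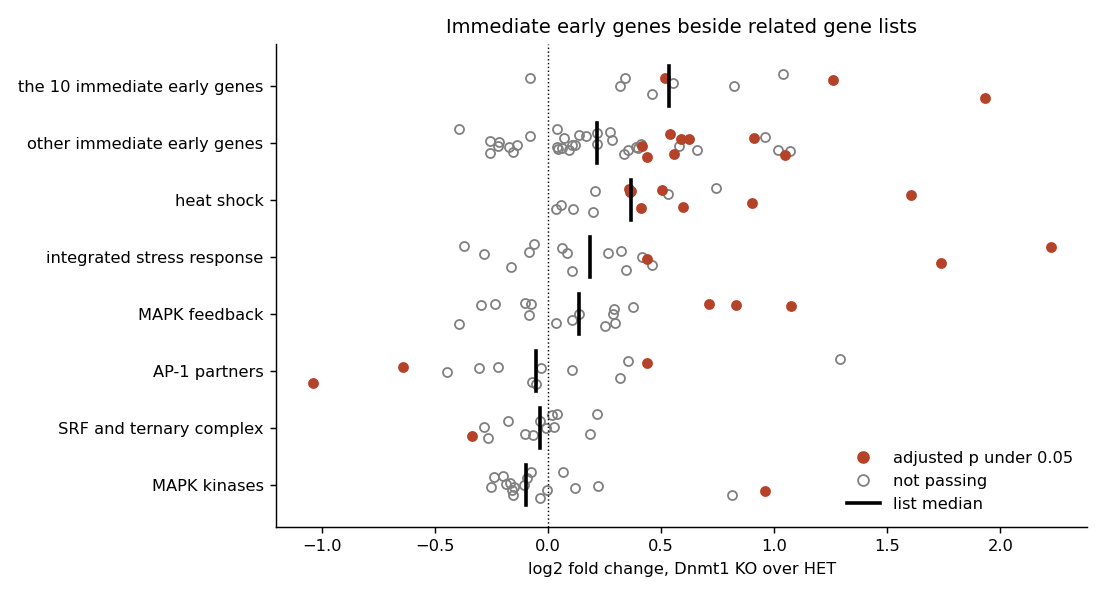
Log2 fold change, KO over HET, of each tested gene (points) in the 10-gene list and in the related gene lists, with the list median as a bar; filled points have adjusted p under 0.05. The medians are 0.54 for the 10 genes and 0.37 for the heat shock genes, against -0.04 for SRF and its partners.

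**Figure D5:**
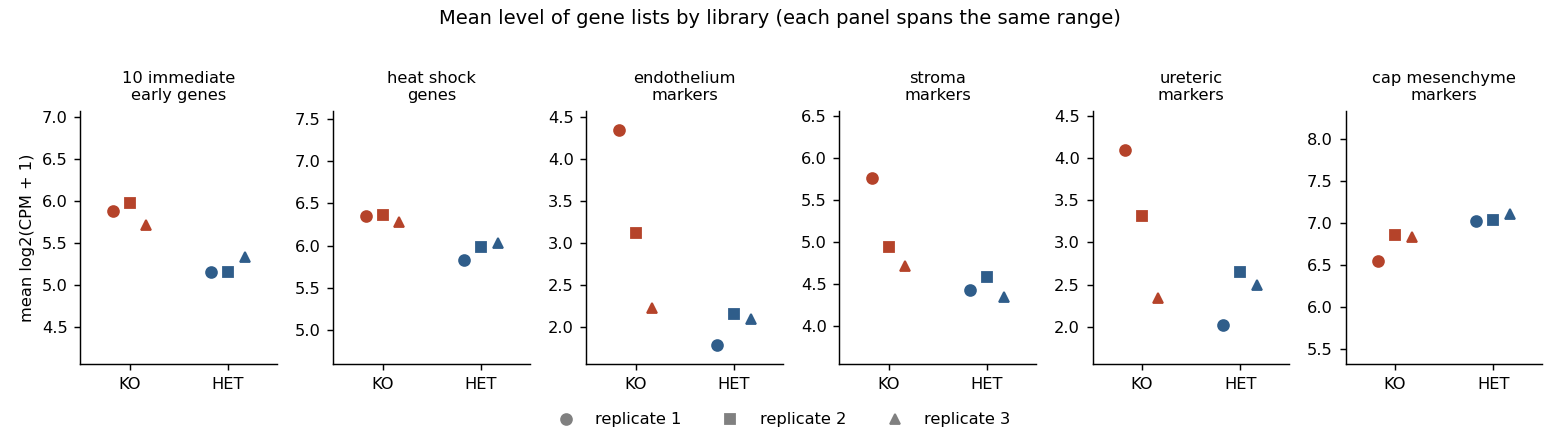
Mean log2(CPM + 1) of the 10 genes and of the marker lists in each KO and HET library. The 10 genes stand at 5.71 to 5.97 in KO and 5.15 to 5.33 in HET, while the endothelium markers run from 2.23 to 4.34 in KO and from 1.79 to 2.16 in HET.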

How the data were processed

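RNA-seq was analysed from 6 libraries of sorted cap mesenchyme, 3 Dnmt1 KO and 3 Dnmt1 HET. The authors deposited, per the file headers, a table for each library with estimated counts, TPM and the effective length of each transcript. The program kallisto and the build mm10 are named in the submitters' processing notes; its version, the transcript index and the strandedness are not stated there. Of 96626 transcripts, 74519 were assigned to 26567 genes with the GENCODE annotation supplied here; the 22107 others, with 7.18% to 7.60% of the counts, were not used. Estimated counts were summed by gene and rounded, libraries were scaled by TMM, genes with low counts were filtered, and 16989 genes were tested with the quasi-likelihood test of edgeR 4.0.16 in R 4.3.3, with Benjamini-Hochberg adjustment over all of them and a threshold of 0.05. The test was checked on simulated counts. Alternatives used DESeq2 1.42.0, limma 3.58.1 on log2(TPM + 1) and log2(TPM + 0.1), other scalings, filters, an effective length offset, a replicate block, the summed Y-linked level as a covariate, and each library left out in turn. Each pair of libraries differed by more than counting noise (chi-square per degree of freedom of 14.2 to 43.8 within groups). The genes and lists were chosen with earlier results of these data known. Genes named outside the 10 were, in each related list, those called or, above 5, the 5 with the smallest p, and the 5 genes most alike in pattern; Hspa1a, Hspb1, Atf4, Ddit3 and Mapk11 were named outside this rule, after their values were seen. Among the 10 genes, depth limits mainly Egr3, with 32 to 119 counts a library. Outside them, Trib3 and Chac1 were also low in HET libraries, at 0.272 to 0.574 and 0.596 to 0.868 CPM. Trib3 was tested in 15 of the 17 alternatives. One gene that this rule names is not reported here.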

Additional observations from a re-analysis of the deposited data

How the results depend on the processing

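Over 17 alternatives no gene of the 10 changed direction: Jun was below 0 and the other 9 above 0 in each. Atf3 was called in 15, Egr2 in 14, Fos in 10, Egr1 in 3, Fosb, Junb and Dusp1 in 1 each. The count of 3 higher was 5 with DESeq2, 1 with the replicate block and 1 with KO replicates 1 and 2 left out (chosen after seeing the data), and 0 to 5 with single libraries left out (0 to 0 lower). The median log2 fold change of the 10 was 0.373 with library totals, 0.321 on log2(TPM + 1) with or without the filter and 0.409 on log2(TPM + 0.1), and 0.472 to 0.617 with single libraries left out. Genes called higher, 836 in all, were 1346 with DESeq2, 457, 454 and 548 on log2(TPM + 1), log2(TPM + 0.1) and unfiltered log2(TPM + 1), 333 with KO replicates 1 and 2 left out, and 526 to 916 with single libraries left out. Genes called lower, 327 in all, were 1883 with library totals, 140 with the Y-linked covariate, 586 with DESeq2, 761 on log2(TPM + 1), 756 on log2(TPM + 0.1), 61 with KO replicates 1 and 2 left out, and 116 to 272 with single libraries left out. In the 6 related lists, the 22 higher were 11 with library totals, 12 with the Y-linked covariate, 10 on log2(TPM + 1) and on log2(TPM + 0.1), 5 unfiltered, 0 with KO replicates 1 and 2 left out and 6 to 21 with single libraries left out; the 3 lower were 11, 1, 6 and 5 under the first 4 of these, 1 with the replicate block, 1 with KO replicates 1 and 2 left out and 1 to 3 with single libraries left out. The count of heat shock genes higher, 8 in all, was 5 on log2(TPM + 1) and on log2(TPM + 0.1) and 3 unfiltered; that of other immediate early genes, also 8, was 4 with the replicate block and 0 on unfiltered log2(TPM + 1). The cause of these changes was not tested. Same-numbered libraries did not deviate together (r = -0.071, -0.045 and -0.035), and the other pairs across the groups had r of -0.162 to 0.181. With 3 libraries a group these values cannot decide whether the numbers pair the samples, and the labels do not say. The replicate block gave Atf3 an adjusted p of 0.0861 and Fos 0.0881 (edgeR).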
